A study of Mus musculus with 3 samples.

Results

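The Eph receptors *Ephb2*, *Ephb3*, *Ephb4* and *Epha2*, the ephrin ligands *Efnb1*, *Efnb2* and *Efna1*, and the hyaluronan receptor *Cd44* were followed across crypt, villus, secretory and adenoma cells of the mouse small intestine. They were chosen by name, and are 8 of the 27998 genes counted in each library. Epithelial cells carrying the surface protein EpCAM were sorted and sequenced with droplet-based single-cell RNA sequencing, in which each captured transcript is counted once through a unique molecular identifier (UMI). There were 3 libraries, 1 for each genotype, all from C57BL/6 mice. The WT library is labelled wild type. The *LApc* library came from *Lgr5-EGFP-IRES-CreERT2;Apc fl/fl* mice, in which the Wnt pathway inhibitor *Apc* can be deleted in stem cells, and the *LApcL* library came from mice that carried *Lef1 fl/fl* as well, so that the transcription factor gene *Lef1* can be deleted together with *Apc*. The mice of every group, WT included, were 7 to 8 weeks old when they got 2 doses of 2 mg tamoxifen, and they were analyzed after 21 days (WT), 29 days (*LApc*) and 21 days (*LApcL*). Because Cre is made from the *Lgr5* locus, deletion starts in *Lgr5*+ cells, and the normal cell classes of the *LApc* and *LApcL* libraries can hold cells that kept their floxed genes. With 1 library a genotype, the genotype, the mouse, the library and, for *LApc*, the day of analysis cannot be told apart, and the p-values given here measure only the spread between these libraries.

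Eph receptors are receptor tyrosine kinases, and their ligands, the ephrins, are themselves bound to the membrane of a neighboring cell, so that signaling takes place at cell contacts and runs into both cells. B-type receptors mostly bind the transmembrane ephrin-B ligands and A-type receptors the lipid-anchored ephrin-A ligands. In the intestine, EphB receptors are known as products of Wnt target genes that are abundant in the crypt and face ephrin-B ligands made by differentiated cells, which keeps cells in their place along the crypt-villus axis. *Cd44* is another Wnt target gene of crypt cells, and its product binds hyaluronan and serves as a coreceptor for growth factors.

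*Ephb2* lies on chr4:136647539-136835988 (minus strand), *Ephb3* on chr16:21204755-21223305 (plus strand), *Ephb4* on chr5:137350109-137378669 (plus strand) and *Epha2* on chr4:141301240-141329384 (plus strand) of the mouse build GRCm38. Among the ligands, *Efnb1* lies on chrX:99136130-99148991 (plus strand), *Efnb2* on chr8:8617434-8661242 (minus strand) and *Efna1* on chr3:89271733-89281142 (minus strand), and *Cd44* lies on chr2:102811141-102901665 (minus strand). *Ephb4* overlaps *Zan*, a gene on the other strand that was counted as well, and whether the counting used strand is not given in the sources used here.

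The 250 bases before the annotated start of 4 of these genes are printed because the results turn on them: *Ephb2* and *Cd44* were lower in villus than in crypt cells, and *Epha2* and *Efnb2* were higher. The sequences come from RefSeq on GRCm38, at chr4:136836013-136836262 (minus strand) for *Ephb2*, chr2:102901666-102901915 (minus strand) for *Cd44*, chr4:141300971-141301220 (plus strand) for *Epha2* and chr8:8661243-8661492 (minus strand) for *Efnb2*. The capitals mark the letters CTTTGA, the core of the sites known to be bound by Tcf and Lef factors.
Ephb2: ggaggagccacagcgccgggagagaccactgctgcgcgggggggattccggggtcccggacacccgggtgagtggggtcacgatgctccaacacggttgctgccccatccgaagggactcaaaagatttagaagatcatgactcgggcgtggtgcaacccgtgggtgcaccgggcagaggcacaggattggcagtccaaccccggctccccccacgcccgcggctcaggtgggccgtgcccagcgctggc
Cd44: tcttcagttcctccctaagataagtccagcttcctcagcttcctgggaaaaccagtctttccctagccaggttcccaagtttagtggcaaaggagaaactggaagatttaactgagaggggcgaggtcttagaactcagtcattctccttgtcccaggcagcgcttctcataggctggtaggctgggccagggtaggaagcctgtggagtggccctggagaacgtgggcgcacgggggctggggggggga
Epha2: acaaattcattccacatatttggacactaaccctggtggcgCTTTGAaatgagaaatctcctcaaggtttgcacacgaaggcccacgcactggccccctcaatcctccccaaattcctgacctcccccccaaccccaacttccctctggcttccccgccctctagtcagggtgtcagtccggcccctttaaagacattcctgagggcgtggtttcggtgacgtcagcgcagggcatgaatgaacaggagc
Efnb2: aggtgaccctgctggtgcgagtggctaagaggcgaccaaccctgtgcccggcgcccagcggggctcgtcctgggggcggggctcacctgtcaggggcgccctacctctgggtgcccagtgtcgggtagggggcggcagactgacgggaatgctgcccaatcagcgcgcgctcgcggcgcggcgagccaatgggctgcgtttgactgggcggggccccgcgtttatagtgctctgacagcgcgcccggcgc
Both strands were searched, so that TCAAAG counted as a match too. All 8 genes matched RefSeq by symbol, with 9 windows among them since *Efna1* has 2 annotated starts. Of these windows 1 held the motif, 209 bases before the start of *Epha2* on the plus strand, and 4544 of 32851 windows of this length over all genes held it (13.8%). The G and C content of the printed windows was 68.4% for *Ephb2*, 56.4% for *Cd44*, 55.6% for *Epha2* and 72% for *Efnb2*, against a median of 52.4% over all windows.

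Barcodes numbered 11453 in the WT, 13214 in the *LApc* and 17388 in the *LApcL* files, with 79696291 to 191509615 UMIs each, and 10138, 9601 and 14394 cells were kept. The median kept cell had 9713 UMIs in WT, 6132 in *LApc* and 10156 in *LApcL*. Between 214 and 318 barcode sequences were shared by each pair of libraries. Cells were clustered without the 8 genes, and clusters were named from marker genes, which gave 2943, 2071 and 1568 crypt cells and 2893, 3615 and 1767 villus enterocytes in WT, *LApc* and *LApcL*. Adenoma cells numbered 1265 in *LApc* and 8823 in *LApcL*, with the marker *Sox17* at 182 and 320 CPM (UMI counts of a gene, scaled to the same total in every group of cells). The 4 WT cells that fell into the same clusters had *Sox17* at 0 and entered no comparison. *Lef1* stood at 21.6 CPM in *LApc* and at 3.60 CPM in *LApcL* adenoma cells. *Apc* was counted at 19.3, 22.1 and 24.3 CPM in the crypt cells and at 49.4 and 37.4 CPM in the *LApc* and *LApcL* adenoma cells. Transcripts with a deleted exon may still be captured and counted at their 3′ end. The *Apc* counts are therefore no check of the genotype labels, and WT, *LApc* and *LApcL* stand throughout for the libraries so labeled.

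All levels are in CPM of the summed cells of a class, and, because each gene is counted near its 3′ end, levels were compared between cells and not between genes. Intervals in brackets are exact 95% counting intervals and cover counting error only. Statements on overlap between libraries describe the named genes only, since the share of all genes without overlap was not counted.

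Along the normal epithelium, the 3 EphB receptor genes and *Cd44* were lower in villus enterocytes than in crypt cells, and *Epha2* and the 3 ephrin genes were higher. The comparison used edgeR's quasi-likelihood test on the summed counts of the 3 libraries, with the library as a block, and 8 of 8 genes passed a Benjamini-Hochberg adjusted p of 0.05, 4 higher and 4 lower. Of the 12087 genes tested, 72.7% passed, 37.2% higher and 35.5% lower, so that a call in this comparison was common.

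*Ephb2*, a receptor for ephrin-B ligands, stood at 33.9 CPM in WT, 40.2 in *LApc* and 33.7 in *LApcL* crypt cells, and at 10.4, 12.3 and 17.4 CPM in villus enterocytes. The lowest crypt library was above the highest villus library. *Ephb2* was 2.37-fold lower in villus enterocytes (log2 difference −1.24, SE 0.15, edgeR adjusted p = 0.000484). *Ephb3*, the second EphB receptor of the crypt, stood at 11.9, 19.9 and 25.8 CPM in crypt cells and at 1.64, 2.25 and 7.08 CPM in villus enterocytes, again without overlap. It was 5.11-fold lower (log2 −2.35, SE 0.23, edgeR adjusted p = 0.000219). *Ephb4*, best known as the ephrin-B2 receptor of veins, stood at 32.5, 41.6 and 32.6 CPM in crypt cells and at 9.08, 7.92 and 13.8 CPM in villus enterocytes. It was 3.05-fold lower (log2 −1.61, SE 0.18, edgeR adjusted p = 0.000391). The 3 EphB receptor genes thus moved the same way in each library, with the smallest log2 difference in *LApcL* for each of them, at −0.95 for *Ephb2*, −1.86 for *Ephb3* and −1.25 for *Ephb4*.

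The A-type receptor gene went the other way. *Epha2*, whose product binds ephrin-A ligands, stood at 5.08, 6.45 and 4.82 CPM in WT, *LApc* and *LApcL* crypt cells and at 11.7, 20.1 and 16.2 CPM in villus enterocytes. Every villus library was above every crypt library, and the gene was 3.31-fold higher in the villus (log2 1.73, SE 0.14, edgeR adjusted p = 0.000119).

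The ligand genes were higher in the villus. *Efnb1* stood at 37.9, 40.2 and 30.7 CPM in crypt cells and at 64.8, 57.5 and 58.5 CPM in villus enterocytes, a 1.94-fold difference (log2 0.95, SE 0.08, edgeR adjusted p = 0.000123). *Efnb2* stood at 5.98, 7.71 and 5.70 CPM in crypt cells and at 29.3, 45.0 and 31.6 CPM in villus enterocytes. It was 6.26-fold higher (log2 2.65, SE 0.11, edgeR adjusted p = 1.08e-05), the largest difference in either direction among the 8 genes in the fit over all libraries. By the CPM of WT and of *LApc* taken alone, *Cd44* and *Ephb3* differed by more. *Efna1*, a ligand of *Epha2*, stood at 18.3, 27.4 and 24.2 CPM in crypt cells and at 36.1, 67.8 and 38.5 CPM in villus enterocytes, 2.31-fold higher (log2 1.21, SE 0.15, edgeR adjusted p = 0.0005). None of the 3 ligand genes overlapped between crypt and villus libraries, and how common this was among all genes was not counted.

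*Cd44* stood at 28.3, 50.1 and 85.4 CPM in the WT, *LApc* and *LApcL* crypt cells and at 3.08, 4.18 and 25.99 CPM in the villus enterocytes. The *LApcL* villus level was just under the WT crypt level, so that the classes did not overlap but came close across libraries. *Cd44* was 5.73-fold lower in the villus (log2 −2.52, SE 0.33, edgeR adjusted p = 0.000686). The difference was −2.15 with an adjusted p of 0.0534 in edgeR without the library block, and −3.15 without the *LApcL* library. Within single libraries the log2 difference was −3.20 in WT, −3.58 in *LApc* and −1.72 in *LApcL*. Scaling by total UMIs in place of the trimmed mean moved the median of all genes to −0.23 and the split of all calls to 28.4% higher and 43.8% lower, and the 8 genes kept their directions, with *Efnb1* at 0.74 and *Efna1* at 0.99.

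**Figure D1:**
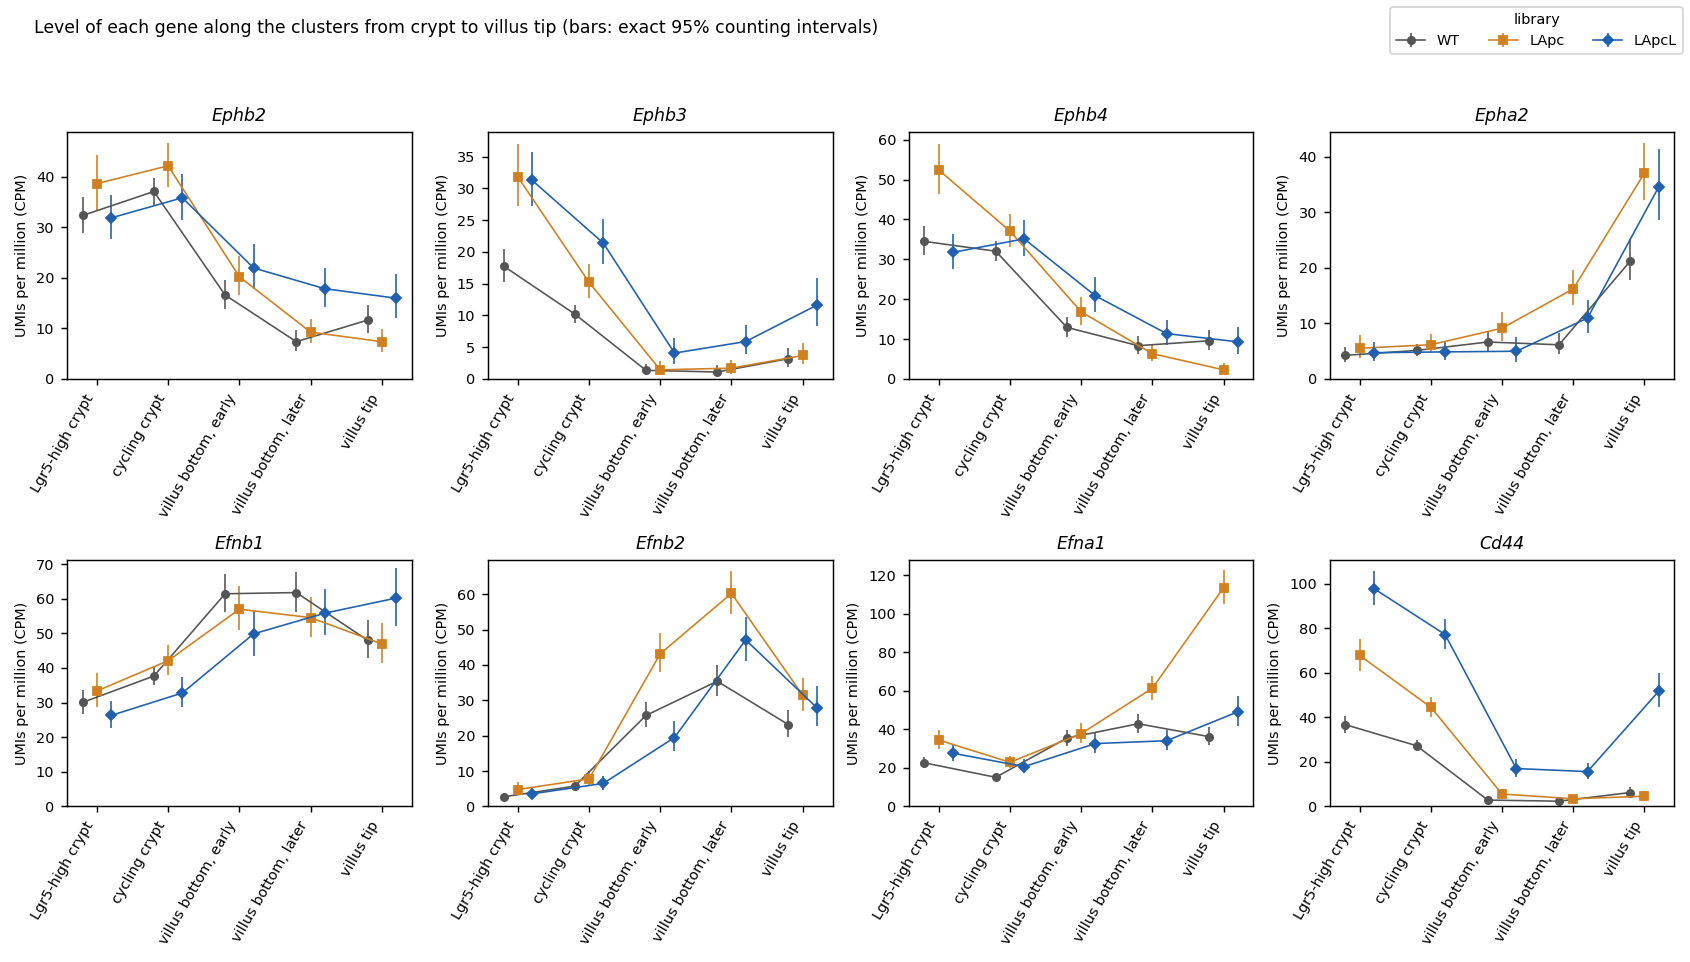
Level of each gene (CPM, linear axis) in Lgr5-high crypt, cycling crypt, early and later villus-bottom and villus-tip cells of the WT, *LApc* and *LApcL* libraries, with exact 95% counting intervals as bars. The 3 EphB receptor genes and *Cd44* were high at the crypt end, *Epha2* was highest at the tip, and *Efnb2* was highest in the later villus-bottom cells at 35.4, 60.3 and 47.1 CPM.

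Within the crypt, cells of the *Lgr5*-high state, which hold the stem cells, were compared with cycling cells. Of the 8 genes 6 passed edgeR's test at an adjusted p of 0.05, where 34.9% of all genes passed. *Ephb3* stood at 17.8, 31.8 and 31.3 CPM in *Lgr5*-high and at 10.2, 15.2 and 21.4 CPM in cycling cells (log2 −0.85, SE 0.10, edgeR adjusted p = 3.16e-07). *Cd44* stood at 36.7, 67.8 and 97.9 CPM in *Lgr5*-high and at 27.2, 44.5 and 77.2 CPM in cycling cells (log2 −0.51, SE 0.07, edgeR adjusted p = 1.12e-06). Both were lower in the cycling cells of all 3 libraries, although the ranges over libraries overlapped. *Efna1* was lower in cycling cells too, at 15.1, 22.9 and 20.7 CPM against 22.6, 34.5 and 27.6 CPM (log2 −0.60, SE 0.09, edgeR adjusted p = 6.5e-06). *Efnb2* was higher in them, at 5.73, 7.79 and 6.49 CPM against 2.70, 4.76 and 3.54 CPM, with no overlap (log2 0.84, SE 0.19, edgeR adjusted p = 0.00134). *Efnb1* was higher by 0.26 (SE 0.08, edgeR adjusted p = 0.00774, and 0.0529 without WT). *Ephb4* was lower by a log2 difference of −0.23 (SE 0.09, edgeR adjusted p = 0.0487), with −0.07 and an adjusted p of 0.607 without *LApc*, and an adjusted p of 0.0533 without WT. *Ephb2* differed by 0.11 and *Epha2* by 0.12, and neither passed. Without the library block none of the 8 passed edgeR's test, and in DESeq2 3 passed. The shares of all genes that passed in those fits are not given here, so these counts cannot be set against them. Under total-UMI scaling the split of all calls was 23.5% higher and 13.5% lower, against 17.4% and 17.6%.

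Along the villus, the tip cells were set against the villus-bottom cells, and 6 of the 8 genes passed where 52.4% of all genes did. Most of these calls were lost without the library block, and the share of all genes in that fit is not given here. *Epha2* stood at 7.36, 13.03 and 8.17 CPM at the bottom and at 21.2, 37.1 and 34.6 CPM at the tip, 3.41-fold higher and without overlap (log2 1.77, SE 0.14, edgeR adjusted p = 8.7e-06). *Ephb3* stood at 1.33, 1.57 and 4.99 CPM at the bottom and at 3.19, 3.69 and 11.6 CPM at the tip (log2 1.29, SE 0.26, edgeR adjusted p = 0.0021). These *Ephb3* levels rested on 20, 21 and 40 UMIs at the tip. *Cd44* stood at 2.54, 4.37 and 16.1 CPM at the bottom and at 6.22, 4.57 and 51.7 CPM at the tip (log2 1.24, SE 0.25, edgeR adjusted p = 0.00216). The 2 *LApc* values of *Cd44* were nearly level, and without the *LApcL* library the difference was 0.82 with an adjusted p of 0.0707. *Sox17* stood at 65.7 CPM in the *LApcL* tip cells and at 23.7 CPM in the *LApcL* bottom cells. The part of adenoma RNA in the *Cd44* and *Ephb3* values was not tested.

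The ligand genes did not share a direction at the tip. *Efna1* stood at 38.9, 50.2 and 33.4 CPM at the bottom and at 36.2, 114 and 49.1 CPM at the tip (log2 0.65, SE 0.22, edgeR adjusted p = 0.0294). It was higher at the tip in 2 of the 3 libraries, most of all in *LApc*, and without that library the difference was 0.24 with an adjusted p of 0.275. *Efnb2* was lower at the tip, at 23.1, 31.5 and 27.9 CPM against 30.3, 52.2 and 34.2 CPM (log2 −0.40, SE 0.12, edgeR adjusted p = 0.0177, and −0.31 with 0.125 without *LApc*). *Efnb1*, at 48.0, 46.9 and 60.2 CPM against 61.0, 55.6 and 52.9 CPM, was not separated from 0 (log2 −0.06). Of the receptor genes, *Ephb4* was lower at the tip, at 9.57, 2.29 and 9.30 CPM against 10.7, 11.1 and 15.8 CPM (log2 −0.80, SE 0.30, edgeR adjusted p = 0.0449). Its adjusted p was 0.196 without *LApc*, with a log2 difference of −0.39, and 0.0779 without *LApcL*. *Ephb2*, at 11.6, 7.38 and 16.0 CPM against 12.2, 14.4 and 19.6 CPM, did not pass (log2 −0.34, edgeR adjusted p = 0.139), and passed without WT (−0.58, adjusted p = 0.0327).

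In ileal enterocytes, a cluster marked by bile acid transport genes, 4 of the 8 genes differed from the villus-bottom cells, where 28.7% of all genes did. Here too most calls were lost without the library block. *Efnb1* was higher there, at 84.1, 74.2 and 77.3 CPM against 61.0, 55.6 and 52.9 CPM and without overlap (log2 0.50, SE 0.09, edgeR adjusted p = 0.00346). *Epha2* was higher as well, at 12.6, 17.9 and 21.0 CPM against 7.36, 13.03 and 8.17 CPM (log2 0.84, SE 0.17, edgeR adjusted p = 0.00764). *Ephb4* was lower, at 5.66, 6.53 and 12.3 CPM against 10.7, 11.1 and 15.8 CPM (log2 −0.68, SE 0.16, edgeR adjusted p = 0.0133, and −0.60 with 0.0764 without WT). *Ephb2* was lower, at 6.25, 12.8 and 11.1 CPM against 12.2, 14.4 and 19.6 CPM (log2 −0.60, SE 0.18, edgeR adjusted p = 0.033). Its adjusted p was 0.174 without WT, at −0.46, and 0.0735 without *LApcL*, at −0.50.

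The secretory and tuft classes shared some departures from the crypt and differed in others. *Ephb4* was called lower in goblet, enteroendocrine and tuft cells, and *Efnb2* higher in goblet and tuft cells. *Cd44* was called lower in goblet and Paneth cells and higher in enteroendocrine cells. In goblet cells, which make mucus, 5 of the 8 genes passed against crypt cells, where 64.2% of all genes did. *Efnb2* was 3.9-fold higher, at 14.6, 30.6 and 12.6 CPM and above all 3 crypt levels (log2 1.96, SE 0.21, edgeR adjusted p = 0.000118). *Ephb4* was lower, at 10.4, 12.8 and 13.3 CPM (log2 −1.08, SE 0.11, edgeR adjusted p = 9.24e-05), and so was *Ephb2*, at 15.0, 13.3 and 20.1 CPM (log2 −0.70, SE 0.13, edgeR adjusted p = 0.00214). Neither receptor gene overlapped with its crypt levels.

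*Cd44* stood at 1.99, 5.10 and 32.8 CPM in goblet cells, 4.56-fold lower than in crypt cells (log2 −2.19, SE 0.37, edgeR adjusted p = 0.00133). The *LApcL* goblet level was above the WT crypt level. Without the block the difference was −1.74 with an adjusted p of 0.123, and without *LApcL* it was −3.00. *Efnb1*, at 34.8, 39.1 and 35.3 CPM, was called higher (log2 0.47, SE 0.10, edgeR adjusted p = 0.00404) although its CPM levels overlapped with those of the crypt. With total-UMI scaling its difference was 0.01 (adjusted p = 0.965), while the median of all genes moved to −0.49 and the split of all calls from 31.6% higher and 32.6% lower to 18.1% and 51.9%. *Ephb3*, at 4.07, 5.60 and 22.9 CPM, did not pass (log2 −0.65, edgeR adjusted p = 0.0542), and passed without *LApcL* (log2 −1.10, adjusted p = 0.00061). *Epha2* did not pass (log2 0.52, edgeR adjusted p = 0.0823), and passed without WT (0.86, adjusted p = 0.00275), and *Efna1* differed by 0.06.

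In Paneth cells, the antimicrobial cells of the crypt base, 3 of the 8 genes passed where 38.0% of all genes did. *Ephb3* stood at 12.2, 21.5 and 28.9 CPM in Paneth cells against 11.9, 19.9 and 25.8 CPM in crypt cells. As a share of all UMIs it was thus level with the crypt, and as a fitted difference it was 4.54-fold higher (log2 2.18, SE 0.16, edgeR adjusted p = 5.73e-08). The Paneth marker genes alone summed to 333007 to 368492 CPM in these cells. Without the trimmed-mean factor, the median of all genes was −2.12, 89.8% of all genes were called lower and 2.27% higher, and *Ephb3* stood at 0.10 with an adjusted p of 0.772. *Ephb3* was therefore high relative to the other genes of a Paneth cell, and its share of all transcripts was not separated from that of the crypt. *Efnb1*, at 3.62, 7.47 and 9.01 CPM, was called lower (log2 −0.55, SE 0.18, edgeR adjusted p = 0.0267), with an adjusted p of 0.503 without WT, at −0.26, and of 0.0648 without *LApc*. *Cd44*, at 3.57, 6.59 and 22.1 CPM, was called lower (log2 −0.47, SE 0.16, edgeR adjusted p = 0.0333), with 0.134 without WT and 0.171, at −0.33, without *LApc*. *Ephb4* did not pass (log2 −0.41, edgeR adjusted p = 0.0759), and passed without *LApc* (−0.59, adjusted p = 0.0298). *Epha2* and *Efnb2* were near their floor in Paneth cells, with 3 to 12 and 6 to 17 UMIs a library.

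In the hormone-making enteroendocrine cells 2 of the 8 genes passed, against 51.4% of all genes. *Ephb4* was 2.34-fold lower than in crypt cells, at 19.3, 13.3 and 16.5 CPM and without overlap (log2 −1.23, SE 0.19, edgeR adjusted p = 0.00109). *Cd44* stood at 64.6, 72.4 and 108 CPM, above the crypt level of its own library in all 3 (log2 0.53, SE 0.19, edgeR adjusted p = 0.0447). The call was lost without WT, at 0.19 and an adjusted p of 0.408, and with classes made by marker score the difference was −0.03. *Ephb3* stood at 11.7, 14.9 and 48.2 CPM, with the *LApcL* level far above the other libraries, and was not called (log2 0.08, edgeR adjusted p = 0.788). *Ephb2* was not called (log2 −0.40, edgeR adjusted p = 0.139), and passed without *LApcL* (−0.72, adjusted p = 0.0125). *Efnb2* was not called (log2 0.64, edgeR adjusted p = 0.0789), and passed without *LApc* (0.94, adjusted p = 0.00821). Under total-UMI scaling the median of all genes was 0.18, and the split of all calls was 32.0% higher and 17.1% lower, against 27.5% and 23.9%.

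In tuft cells, chemosensory cells of the epithelium, 5 of the 8 genes passed where 48.8% of all genes did. *Efnb2* was 3.94-fold higher than in crypt cells, at 28.7, 34.4 and 20.8 CPM (log2 1.98, SE 0.22, edgeR adjusted p = 2.38e-05). *Ephb3* was 3.16-fold lower, at 2.96, 2.46 and 12.5 CPM (log2 −1.66, SE 0.28, edgeR adjusted p = 0.000467, and −2.29 without *LApcL*), on 7, 1 and 21 UMIs. *Ephb4* was lower, at 22.0, 24.6 and 16.0 CPM (log2 −0.89, SE 0.18, edgeR adjusted p = 0.00152). *Efna1* was lower, at 12.3, 17.2 and 14.8 CPM (log2 −0.78, SE 0.19, edgeR adjusted p = 0.00479, and −0.70 with 0.0657 without *LApcL*). *Ephb2* stood at 48.6, 39.4 and 59.9 CPM and was called higher (log2 0.41, SE 0.15, edgeR adjusted p = 0.0452). That call was lost without WT (0.31, adjusted p = 0.233) and without *LApcL* (0.26, adjusted p = 0.37). The *LApc* tuft class held 82 cells, and immune marker genes summed to 1670 CPM in it against 85.0 in WT and 83.6 in *LApcL*. The part of those transcripts in the tuft values was not tested.

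**Figure D2:**
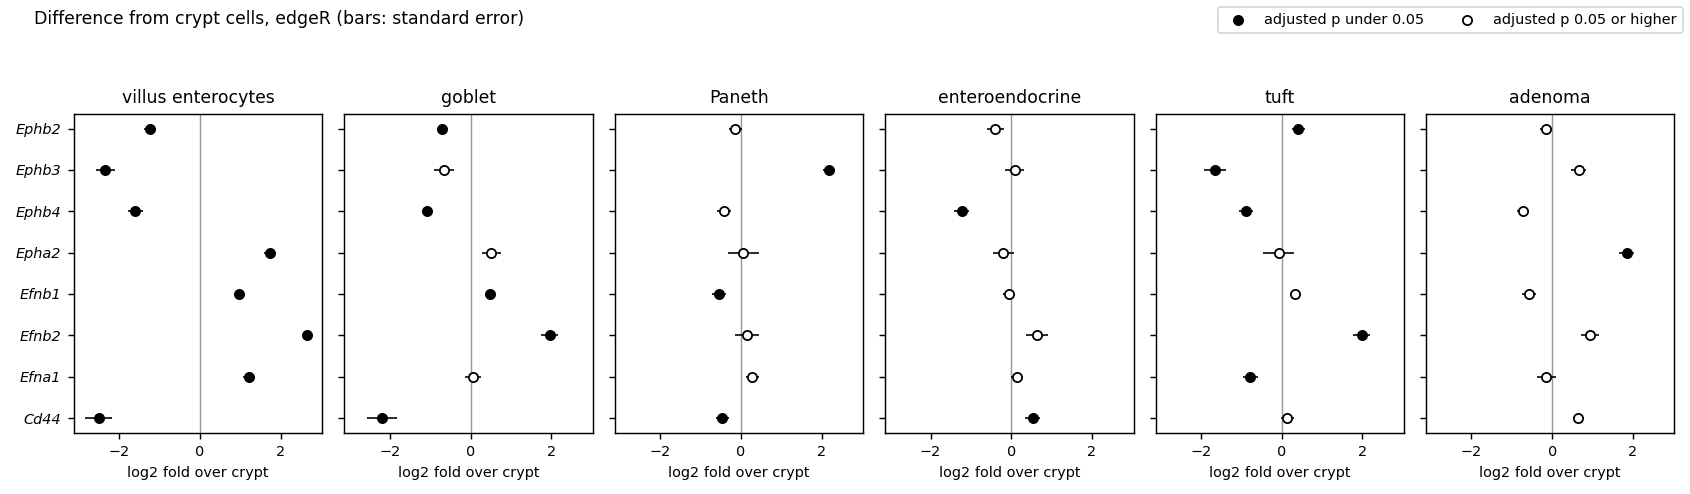
Fitted log2 difference of each gene from crypt cells (horizontal axis, one gene a row) in villus enterocytes, goblet, Paneth, enteroendocrine, tuft and adenoma cells, with standard errors as bars and filled points for an edgeR adjusted p under 0.05. *Efnb2* was to the right of 0 in villus, goblet and tuft cells at 2.65, 1.96 and 1.98, *Ephb3* in Paneth cells at 2.18, and *Epha2* in villus and adenoma cells at 1.73 and 1.85.

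In adenoma cells *Epha2*, which marked the villus in normal tissue, was higher than in crypt cells, and *Ephb2*, *Ephb3* and *Cd44* were not separated from the crypt by the test. The comparison rested on the *LApc* and *LApcL* libraries only, with 1 residual degree of freedom, and 1 of the 8 genes passed where 4.59% of all 12521 genes did. *Epha2* stood at 27.4 CPM in *LApc* and 19.6 CPM in *LApcL* adenoma cells against 6.45 and 4.82 CPM in the crypt cells of the same libraries. It was 3.61-fold higher (log2 1.85, SE 0.19, edgeR adjusted p = 0.0383), and the log2 ratio was 2.09 in *LApc* and 2.02 in *LApcL* taken alone. The call was lost with finer clusters (1.91, adjusted p = 0.0605) and with classes made by marker score (0.55, adjusted p = 0.395). The adenoma cluster also raised 7 stem and 9 cycling marker genes, so that a crypt class made by marker score can hold adenoma cells. The part of such cells in that difference was not tested.

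*Ephb2* stood at 39.3 and 37.0 CPM in *LApc* and *LApcL* adenoma cells against 40.2 and 33.7 CPM in crypt cells (log2 −0.15, SE 0.15, edgeR adjusted p = 0.548). *Ephb3* stood at 43.6 and 38.9 CPM against 19.9 and 25.8 CPM, above the crypt in both libraries, and did not pass (log2 0.66, SE 0.18, edgeR adjusted p = 0.105). *Ephb4* stood at 29.8 and 22.1 CPM against 41.6 and 32.6 CPM, below the crypt in both (log2 −0.72, SE 0.14, edgeR adjusted p = 0.0664). *Cd44* stood at 94.3 and 149 CPM against 50.1 and 85.4 CPM (log2 0.65, SE 0.13, edgeR adjusted p = 0.0678). The adenoma value was above the crypt value in both libraries, and DESeq2 gave an adjusted p of 0.0291. With classes made by marker score, under which the crypt class can hold adenoma cells, the difference was −0.020 (edgeR adjusted p = 0.957).

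Of the ligand genes, *Efnb2* stood at 15.4 and 13.7 CPM in adenoma cells against 7.71 and 5.70 CPM in crypt cells (log2 0.93, SE 0.22, edgeR adjusted p = 0.0842). *Efnb1* stood at 27.4 and 26.8 CPM against 40.2 and 30.7 CPM (log2 −0.57, SE 0.18, edgeR adjusted p = 0.124). *Efna1* stood at 38.4 and 18.8 CPM against 27.4 and 24.2 CPM, above the crypt in *LApc* and below it in *LApcL* (log2 −0.14, SE 0.24, edgeR adjusted p = 0.717). The normal crypt class of *LApcL* held *Sox17* at 29.1 CPM, against 1.13 in *LApc* and 0 in WT. With cells that had a *Sox17* or *Msx1* UMI left out of the normal classes, 4 of the 8 genes passed edgeR's test where 14.9% of all genes did, *Epha2*, *Ephb3* (0.80, adjusted p = 0.0388), *Ephb4* (−0.73, adjusted p = 0.0397) and *Cd44* (0.79, adjusted p = 0.0343). Under total-UMI scaling the median of all genes was 0.20.

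Whether loss of *Lef1* goes with a change of these genes in the adenoma is a question of *LApcL* against *LApc*, for which there was 1 library each and no test. A gene was counted as past the fold at 1.5-fold, which 28.3% of all 12981 genes reached, 5.74% higher and 22.6% lower in *LApcL*. Of the 8 genes 1 was past it upward and 1 downward. *Cd44* was 1.58-fold higher in the *LApcL* library (log2 0.66 [0.56, 0.75]), on 940 and 15875 UMIs in *LApc* and *LApcL*. *Efna1* was 2.05-fold lower (log2 −1.03 [−1.19, −0.87]), on 383 and 2006 UMIs. The *Efna1* difference was smaller without *Wfdc18*-high cells and larger without cells holding a cycling UMI. Smaller log2 ratios were −0.43 [−0.61, −0.25] for *Ephb4*, −0.48 [−0.67, −0.30] for *Epha2* and −0.17 [−0.31, −0.02] for *Ephb3*. The intervals held 0 for *Ephb2* (−0.09), *Efnb1* (−0.03) and *Efnb2* (−0.18). Trimmed-mean scaling moved all ratios up by 0.23, to 0.89 for *Cd44*, −0.80 for *Efna1* and 0.06 for *Ephb3*. Marker genes of immune cells summed to 59.5 CPM in *LApc* and 1.78 CPM in *LApcL* adenoma cells, with none of them at 0, and those of fibroblasts and muscle to 18.0 and 1.25 CPM. Their part in the ratios was not tested.

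**Figure D3:**
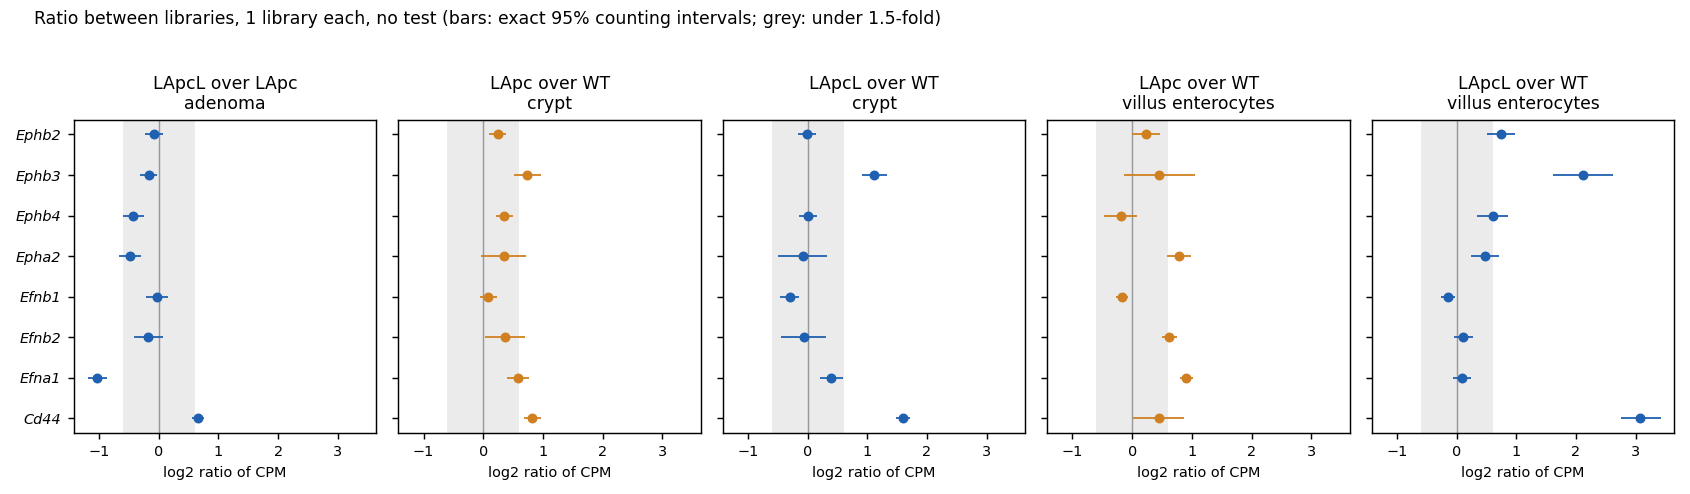
Log2 ratio of each gene's CPM between libraries (horizontal axis, one gene a row) in adenoma cells (*LApcL* over *LApc*), crypt cells and villus enterocytes (*LApc* and *LApcL* over WT), with exact 95% counting intervals as bars and the range under 1.5-fold shaded. *Cd44* was to the right of the shaded range in 4 of the 5 panels, up to 3.08 in *LApcL* villus enterocytes, and *Efna1* was to the left of it in adenoma cells at −1.03.

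The adenoma cells fell into a cluster named for *Wfdc18*, an *S100g*-high and a cycling cluster, and the library ratios were not equal among these. The *Wfdc18* cluster held 798 of 1265 adenoma cells in *LApc* and 4329 of 8823 in *LApcL*. The part of this make-up in the ratios over all adenoma cells was not tested. *Wfdc18* stood at 2532 CPM in the *LApc* and at 51.3 CPM in the *LApcL* cells of the first cluster, above the other clusters of the same library but, in *LApcL*, below the *LApc* cells of the *S100g*-high (93.9) and cycling clusters (1146). The *LApcL* cells of the *Wfdc18* cluster were thus not high in that gene, and the ratios there compare cells that differed in it. *Cd44* was higher in *LApcL* in each, at 106 and 171 CPM in the *Wfdc18* cluster (log2 0.70 [0.58, 0.82]), 65.5 and 112 CPM in the *S100g*-high cells (0.78 [0.55, 1.01]) and 97.7 and 151 CPM in the cycling cells (0.63 [0.38, 0.89]). *Efna1* was lower in *LApcL* by a log2 ratio of −1.08 in the *Wfdc18* cluster, at 49.96 and 23.6 CPM, and of −0.97 in the cycling cells, at 21.5 and 10.9 CPM. In the *S100g*-high cells it stood at 19.7 and 16.4 CPM, and the interval held 0 (−0.27 [−0.68, 0.18]). *Ephb3* was lower in *LApcL* in the *Wfdc18* cluster, at 42.2 and 30.9 CPM (−0.45 [−0.64, −0.26]), and its interval held 0 in the *S100g*-high cells, at 44.2 and 49.7 CPM (0.17 [−0.11, 0.46]). *Epha2* was lower by −0.73 in the *S100g*-high cells, at 22.5 and 13.5 CPM, and by −0.29 in the *Wfdc18* cluster, at 30.6 and 25.1 CPM. *Ephb2* stood between 32.8 and 42.9 CPM in all clusters of both libraries. Whether the ratios differed between clusters was not tested.

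**Figure D4:**
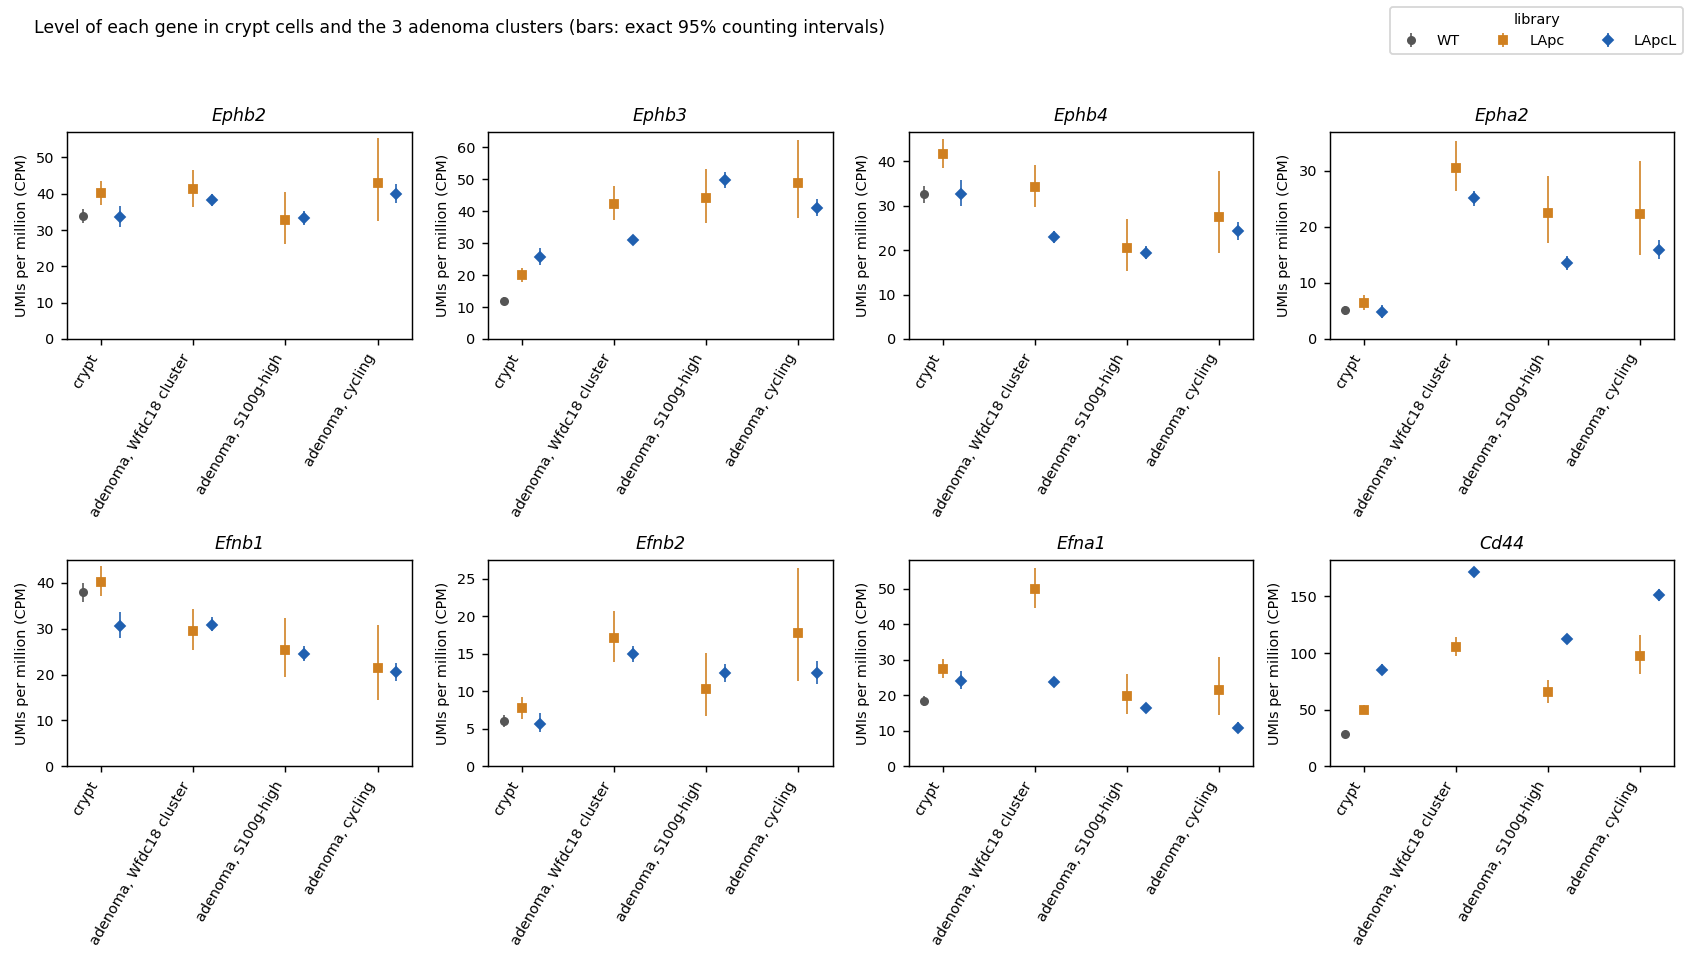
Level of each gene (CPM, linear axis) in crypt cells and in the *Wfdc18*, *S100g*-high and cycling adenoma clusters of each library, with exact 95% counting intervals as bars; WT appears for the crypt only. *Cd44* was higher in *LApcL* than in *LApc* in all 3 clusters, and *Efna1* reached 49.96 CPM in the *LApc* cells of the *Wfdc18* cluster, against 23.6 CPM in its *LApcL* cells, which held little *Wfdc18*.

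The normal crypt cells of the 3 libraries were compared next, again without a test. In *LApc*, *Cd44* was 1.77-fold (log2 0.83 [0.69, 0.96]) and *Ephb3* 1.67-fold (0.74 [0.52, 0.96]) higher than in WT, and 13.3% of all genes were past 1.5-fold. In *LApcL*, *Cd44* was 3.02-fold (1.59 [1.47, 1.72]) and *Ephb3* 2.17-fold (1.12 [0.91, 1.32]) higher, and 15.5% of all genes were past the fold. The other 6 genes stayed under it in both libraries, from *Efnb1* in *LApcL* (−0.30 [−0.46, −0.15]) to *Efna1* in *LApc* (0.58 [0.40, 0.76]). In the *Lgr5*-high crypt cells taken alone, 5 of the 8 genes were past 1.5-fold in *LApc*, where 14.6% of all genes were. They were *Cd44* (0.89), *Ephb3* (0.84), *Efnb2* (0.82 [−0.02, 1.65], on 25 and 28 UMIs), *Efna1* (0.61 [0.32, 0.90]) and *Ephb4* (0.60 [0.37, 0.83]). With trimmed-mean scaling each of these ratios was lower by 0.08, which takes *Efna1* and *Ephb4* under 1.5-fold. *Ephb2* was at 0.24 [0.10, 0.39] in *LApc* and at −0.01 in *LApcL*, below the ratios of *Ephb3* and *Cd44*. With cells holding a *Sox17* or *Msx1* UMI left out, 918 of the 1568 *LApcL* crypt cells remained, and the *LApcL* ratios were 0.82 [0.55, 1.07] for *Ephb3* and 1.30 [1.15, 1.45] for *Cd44*. With crypt cells chosen by marker score in place of clusters, 8 ratios of both libraries were past the fold in place of 4. Among them were 2.20 for *Cd44* and 1.74 for *Epha2* in *LApcL*, and the share of all genes is not given here. The adenoma cluster also raised 7 stem and 9 cycling marker genes, so that cells chosen by score can include adenoma cells. In *LApcL* adenoma cells *Cd44* stood at 149 CPM and *Epha2* at 19.6 CPM. The part of adenoma cells in these ratios was not tested.

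In villus enterocytes, *LApcL* stood apart in the genes that were low in the normal villus. *Cd44* was 8.44-fold higher than in WT (log2 3.08 [2.75, 3.42]), *Ephb3* 4.32-fold (2.11 [1.62, 2.63]), *Ephb2* 1.67-fold (0.74 [0.50, 0.98]) and *Ephb4* 1.52-fold (0.60 [0.34, 0.87]), and 17.6% of all genes were past 1.5-fold. Under trimmed-mean scaling each log2 ratio was lower by 0.10, which takes *Ephb4* under 1.5-fold. *Sox17* stood at 35.6 CPM in these *LApcL* cells, at 1.45 in *LApc* and at 0 in WT. The 8 adenoma marker genes, *Sox17* among them, summed to 107, 15.0 and 1.67 CPM. With the *Sox17* or *Msx1* cells left out, 1202 *LApcL* villus enterocytes remained, with ratios of 2.27 [1.89, 2.66] for *Cd44*, at 14.9 CPM, 1.36 [0.73, 1.98] for *Ephb3*, 0.55 [0.26, 0.83] for *Ephb2* and 0.39 [0.07, 0.70] for *Ephb4*. The part of adenoma RNA in the remaining difference was not tested.

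*LApc* villus enterocytes differed from WT in other members. *Efna1* was 1.88-fold (0.91 [0.80, 1.02]), *Epha2* 1.72-fold (0.79 [0.58, 0.99]) and *Efnb2* 1.54-fold (0.62 [0.49, 0.75]) higher, where 16.2% of all genes were past the fold. At the villus tip *Efna1* was 3.14-fold higher in *LApc* than in WT (1.65 [1.43, 1.87]), at 114 CPM against 36.2 CPM, and *Ephb4* was lower (−2.07 [−3.06, −1.18]), on 13 UMIs in *LApc* and 60 in WT. Of all genes 28.6% were past 1.5-fold at the tip. The *LApc* and WT tip cells also differed in the sum of villus-tip markers (23675 and 7867 CPM), in *Apoa4* (21331 and 6976 CPM), in median UMIs a cell (4499 and 8331) and in the median mitochondrial share (11.7% and 9.11%). The part of these in the ratios was not tested. *Cd44* (0.44 [0.01, 0.87]) and *Ephb3* (0.45 [−0.14, 1.05]) stayed under 1.5-fold in *LApc* villus enterocytes.

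In *LApcL* goblet cells 4 of the 8 genes were past 1.5-fold over WT, and in enteroendocrine cells 3 of the 7 with enough UMIs, all of them higher. In goblet cells *Cd44* stood at 1.99 CPM in WT and 32.8 CPM in *LApcL*, 16.5-fold higher (4.04 [3.57, 4.55], where 22.4% of all genes were past 1.5-fold), and *Ephb3* at 4.07 and 22.9 CPM, 5.63-fold higher (2.49 [2.11, 2.89]). *Epha2* was 1.92-fold (0.94 [0.37, 1.49]) and *Efna1* 1.64-fold (0.71 [0.38, 1.04]) higher there. Each goblet log2 ratio of *LApcL* was lower by 0.22 with trimmed-mean scaling, which takes *Efna1* under 1.5-fold. The Paneth marker *Lyz1* stood at 383 CPM in WT and 3724 CPM in *LApcL* goblet cells, the Paneth marker genes summed to 18699 and 29364 CPM, and *Ephb3* stood at 28.9 CPM in *LApcL* Paneth cells. The part of Paneth transcripts in the goblet values was not tested. In *LApc* goblet cells 4 of the 8 genes were past the fold too, where 18.4% of all genes were, up to *Efna1* at a log2 ratio of 1.42. In enteroendocrine cells *Ephb3* was 4.12-fold (2.04 [1.49, 2.62]), *Ephb2* 1.75-fold (0.81 [0.37, 1.25]) and *Cd44* 1.68-fold (0.74 [0.47, 1.02]) higher, where 22.3% of all genes were past the fold. The same scaling lowered these log2 ratios by 0.22 as well, which takes *Cd44* under 1.5-fold. *Sox17* stood at 32.3 CPM in *LApcL* goblet cells and at 112 CPM in *LApcL* enteroendocrine cells, against 0.0925 and 0 CPM in WT. Its part in these ratios was not tested.

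Shares of cells with at least 1 UMI were taken after each cell was thinned to 3000 UMIs. *Cd44* was seen in 8.02% of WT, 12.5% of *LApc* and 21.5% [19.5, 23.6] of *LApcL* crypt cells, and in 22.0% [19.7, 24.5] of *LApc* and 32.4% [31.4, 33.4] of *LApcL* adenoma cells. In WT goblet cells and WT ileal enterocytes, where *Cd44* stood at 1.99 and 1.77 CPM, the shares were 0.405% and 0.657%, at medians of 8525.5 and 10314 UMIs a cell against 10658 in WT crypt cells. Without thinning the *Cd44* shares were 24.4%, 25.0% and 44.8% in the crypt, 43.3% and 71.3% in the adenoma, 1.70% in WT goblet cells and 1.97% in WT ileal enterocytes. *Ephb2* was seen in 9.00% [7.99, 10.1], 10.3% and 9.88% of the crypt cells and in 10.4% and 10.4% of the adenoma cells, and in 30.1%, 24.0%, 26.1%, 24.5% and 34.2% before thinning. *Ephb3* was seen in 3.43%, 5.94% and 6.80% of the crypt cells and in 11.1% and 10.6% of the adenoma cells, against 0.491% of WT villus-bottom cells (median 10104 UMIs). Its shares before thinning were 11.8%, 12.2% and 19.0%, then 26.2% and 33.7%, and 1.47%. UMIs of the receptor *Ephb2* and its ligand *Efnb1* were found together in 1.33% of WT crypt cells after and in 10.7% before thinning. Thinning left out 0, 66 and 10 crypt cells of WT, *LApc* and *LApcL*, and 35 and 15 adenoma cells of *LApc* and *LApcL*.

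Across all classes each gene had its own order of levels, given here as the geometric mean CPM over libraries. The adenoma mean is over *LApc* and *LApcL*, and that of every other class holds WT as well. Paneth marker genes alone summed to 333007 to 368492 CPM in Paneth cells, which leaves a smaller share to every other gene. In the fit against crypt cells, the Paneth log2 difference was −0.14 for *Ephb2*, 0.06 for *Epha2*, 0.15 for *Efnb2* and −0.55 for *Efnb1*. *Ephb2* was highest in tuft cells (48.6), followed by adenoma (38.2), crypt (35.8) and enteroendocrine cells (29.3), with goblet cells (15.9) and the villus classes (15.1 to 9.62) far below and Paneth cells last (8.29). The lowest tuft level (39.4 CPM, in the 82 *LApc* cells) and the highest adenoma level (39.3 CPM, in *LApc*) were nearly equal. The tuft and adenoma ranges thus met and were not clearly apart. Those of enteroendocrine and goblet cells did not overlap, and the other neighbors overlapped. *Ephb3* was highest in the adenoma (41.2), where its levels overlapped with those of enteroendocrine cells (20.3), and lowest in villus-bottom cells (2.18). *Ephb4* was highest in the crypt (35.4), without overlap with the adenoma (25.7), and lowest at the villus tip (5.88). *Epha2* was highest at the villus tip (30.1) and in the adenoma (23.2), which overlapped, and lowest in Paneth cells (1.35).

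Among the ligands, *Efnb1* was highest in ileal enterocytes (78.5), without overlap with villus-bottom cells (56.4), and ended with crypt (36.0), adenoma (27.1) and Paneth cells (6.25). The crypt overlapped with goblet cells (36.4) above it and not with the adenoma, nor did adenoma and Paneth cells overlap. *Efnb2* was highest in villus-bottom (37.8) and ileal enterocytes (33.5), which overlapped, and ended with crypt (6.41) and Paneth cells (1.85), which did not. *Efna1* was highest at the villus tip (58.7), and villus-bottom cells (40.3) did not overlap with enteroendocrine cells (28.0), the next in order. *Cd44* ran from adenoma (118) through enteroendocrine (79.7), tuft (62.4) and crypt cells (49.5) to ileal enterocytes (5.43), and each class overlapped with its neighbor. The adenoma mean lacked WT, which was the lowest library in enteroendocrine (64.6 CPM) and crypt cells (28.3 CPM). The low end of the order, from villus-tip cells (11.4) down, held the classes in which the *LApcL* library stood apart.

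**Figure D5:**
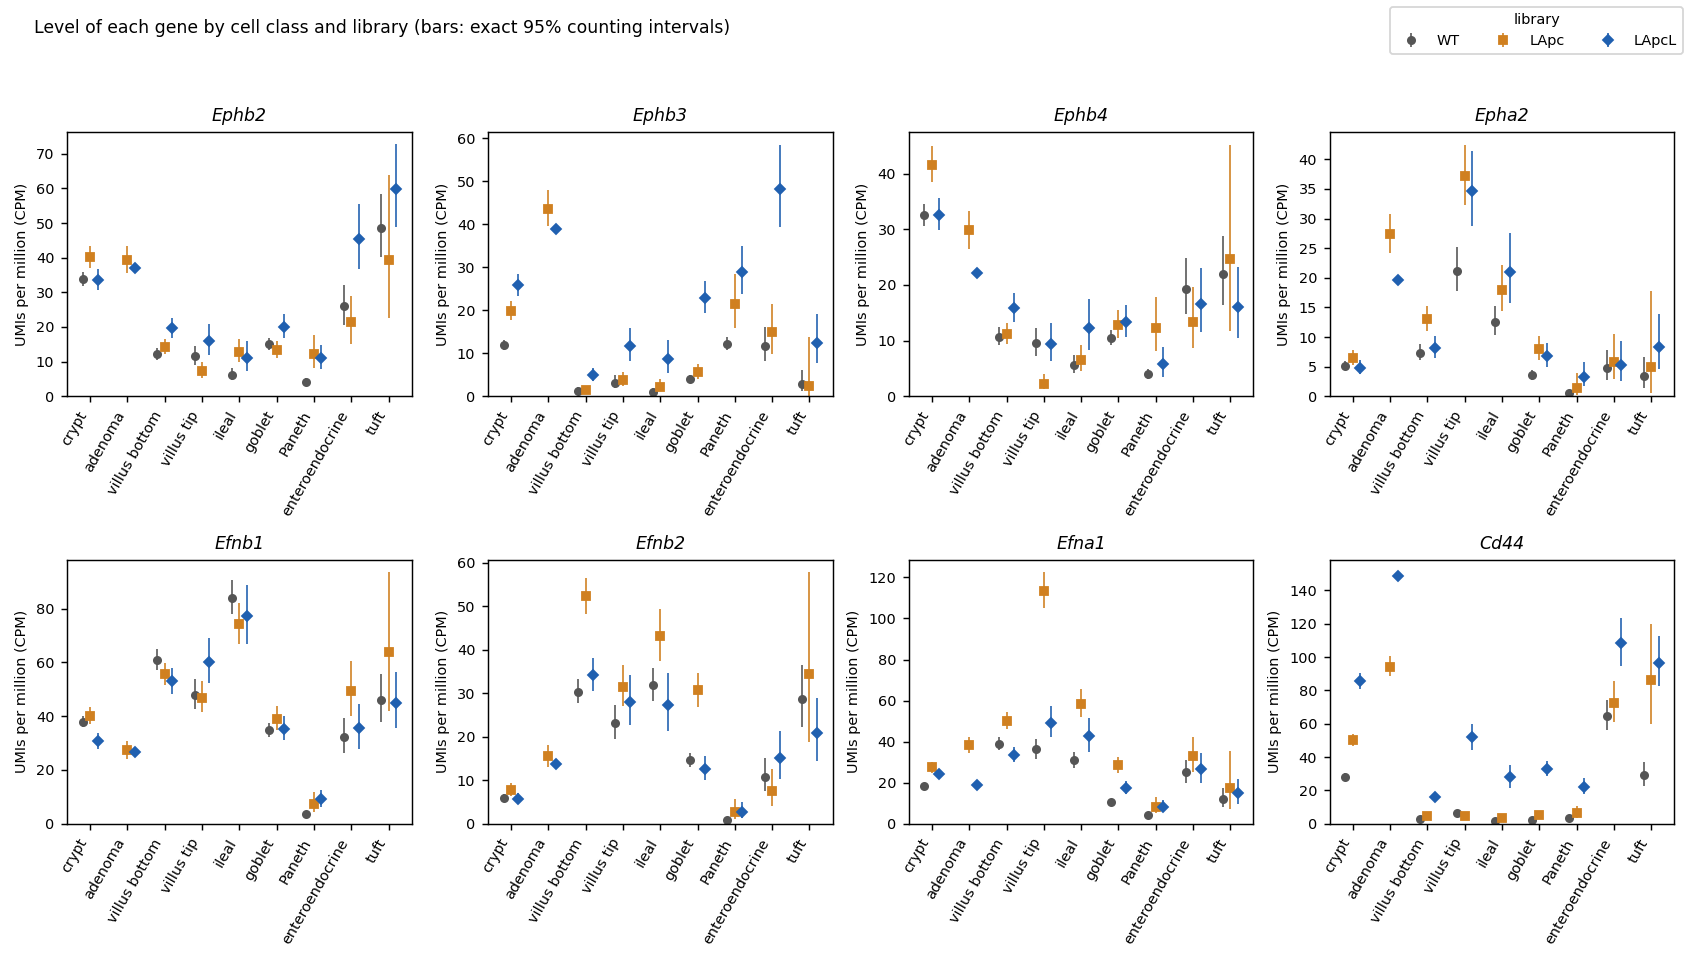
Level of each gene (CPM, linear axis, a panel for each gene) in 9 cell classes of the WT, *LApc* and *LApcL* libraries, with exact 95% counting intervals as bars; adenoma has no WT point. *Ephb2* and *Ephb4* were high in the crypt and low in the villus, *Epha2* was high at the villus tip and in the adenoma, and the *LApcL* points of *Cd44* lay above the WT points in all 8 classes that have one.

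The genes whose levels were most like each member were found by Pearson's r of log2(CPM + 5) over 26 pairs of class and library, among 8506 genes. The pairs share libraries and classes, so that these are descriptions. *Ephb2* was closest to *Acyp1* (0.95), *Ephb3* to *Igfbp4* (0.877), *Ephb4* to *Ptma* (0.928) and *Epha2* to *Egln3* (0.931). *Efnb1* was closest to *2610528J11Rik* (0.967), *Efnb2* to *Slc25a24* (0.929), *Efna1* to *Net1* (0.944) and *Cd44* to *Hunk* (0.949). Among the members themselves, r was 0.84 for *Ephb2* and *Ephb4*, 0.81 for *Ephb2* and *Cd44*, 0.83 for *Efnb1* and *Efnb2*, and 0.81 for the receptor and ligand pair *Epha2* and *Efna1*. It was −0.66 for *Ephb3* and *Efnb2*.

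Of the other 15 Eph and ephrin genes, 5 were counted highly enough to be tested between villus and crypt, and all 5 passed edgeR's test, which 72.7% of all genes passed. *Epha1* was higher in the villus (log2 2.099), and *Efna2* (−2.29), *Efna4* (−2.02), *Efna3* (−1.58) and *Epha4* (−1.50) were lower, with a median of −1.58 against −0.01 over all genes. The tested ephrin-A genes of this list, *Efna2*, *Efna3* and *Efna4*, thus went the other way from *Efna1*. *Efna5*, with 31 UMIs in all kept cells, was not tested. Their highest levels were 54.7 CPM for *Epha1* at the *LApc* villus tip, 39.5 CPM for *Efna4* in the *LApcL* crypt, 40.3 CPM for *Epha4* in *LApcL* tuft cells and 15.6 CPM for *Efna3* in the WT crypt. *Epha6* and *Ephb1* had 1 UMI each and *Epha8* had 2 in all kept cells.

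Of 22 signaling partners and proteases of Eph receptors and ephrins, 22 were tested between villus and crypt, and 12 were higher and 4 lower, with a median of 0.29. The 16 that passed are thus the same share as the 72.7% of all genes. The largest differences were those of the kinase gene *Src* (1.34) and of the Rac activator gene *Tiam1* (−2.83). Of 10 genes for partners, splicing factors and proteases of CD44, 8 were tested, 4 higher and 2 lower against the same 72.7%, with a median of 0.21, led by the membrane linker *Ezr* (1.94) and the protease *Mmp14* (−1.18). Between adenoma and crypt none of the 6, 22 and 9 genes tested of these 3 lists passed edgeR's adjusted p of 0.05, although 1, 4 and 6 of them had an unadjusted p under 0.05. DESeq2 called 1 (*Ephb6*), 1 (*Fyn*) and 4 of them (*Ezr*, *Hyal2*, *Mmp14* and *Msn*), all higher in the adenoma, where it called 13.6% of all genes.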

How the data were processed

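EpCAM+ cells of the small intestine were profiled in 3 libraries, 1 each for WT, *LApc* and *LApcL*. The deposited files hold whole-number UMI counts per gene and barcode, which the authors made, per the submitters' processing notes, with Cell Ranger 2.1.1 on mm10 (GRCm38), and which were not normalized. The 8 genes and the gene lists (the rest of the family, signaling partners, CD44 partners) were chosen with earlier results of these data known, and the 8 genes are always named. From each list the tested members with the largest difference in each direction are named, and family members by their detection.

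From the counts, barcodes in the lowest or highest 1% of detected genes of their library or with over 20% mitochondrial UMIs were left out (0.541%, 17.7% and 2.38% of WT, *LApc* and *LApcL* barcodes exceeded the latter). Doublet scores from Scrublet (scanpy 1.11.5) removed 1023, 1135 and 2326 barcodes at an assumed rate, because its automatic threshold marked only 4 in *LApc*. Cells were integrated with Seurat 5.3.0 on 958 genes that left out the 8 members and other listed genes, clustered at resolution 0.2 (0.4 for states within classes), and named from marker genes, so that the cell types are rebuilt names. Summed counts per class and library were tested with edgeR 4.0.16 (R 4.3.3; TMM factors, the library as a block, low counts filtered, two-sided quasi-likelihood test, Benjamini-Hochberg adjustment over all genes tested). The fit left 2 residual degrees of freedom, and 1 for the adenoma, for which WT had too few cells. The edgeR script was tested on simulated data. Between libraries, of which there was 1 a group, ratios of CPM were given with exact binomial intervals and no test, for genes with at least 50 UMIs over both libraries. The comparisons within the crypt and within the villus, and the alternative without *Sox17* or *Msx1* cells, were added after the data were seen.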

Additional observations from a re-analysis of the deposited data

Results flagged for a closer look

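*Efna1* stood on opposite sides of the crypt level in adenoma cells of the *Apc*-mutant libraries. The log2 ratio of adenoma to crypt CPM was 0.49 [0.28, 0.69] in *LApc* and −0.36 [−0.53, −0.20] in *LApcL*, and the difference between the libraries was not tested.

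*Ephb2* in enteroendocrine cells was above the crypt level of its own library in *LApcL*, at a log2 ratio of 0.43 [0.10, 0.75], and below it in WT, at −0.38 [−0.73, −0.06], and in *LApc*, at −0.91 [−1.41, −0.45]. This difference was not tested either. *Sox17* stood at 112 CPM in the *LApcL* enteroendocrine cells and at 4.26 and 0 CPM in *LApc* and WT.

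A pair of clusters that received no name, and entered no comparison, held signal for 3 of the genes above WT. In cluster 10, with 51 WT and 252 *LApcL* cells, *Cd44* stood at 105 CPM [90.7, 121] in *LApcL* and at 17.1 CPM [6.89, 35.3] in WT, and *Sox17* stood at 243 CPM in the *LApcL* cells. In cluster 7, which had goblet and cycling genes among its markers, *Ephb3* stood at 15.9 CPM in *LApc* and 15.2 CPM in *LApcL*, against 6.22 CPM in WT. *Efna1* stood there at 25.1 and 26.8 CPM, against 14.6 CPM, and *Cd44* at 27.6 CPM in *LApcL*, against 12.1 CPM in WT. *Sox17* stood at 16.8 CPM in the *LApcL* cells of that cluster.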

How the results depend on the processing

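All 8 genes passed between villus and crypt in each fit that left out 1 library (8 to 8), and 7 to 8 did so in all alternatives. Over the 4 secretory and tuft comparisons 15 calls were made, and the number ran from 10 to 21 over the alternatives and from 12 to 15 without 1 library. Against the 1 gene called in the adenoma, DESeq2 called 2, no filter on low counts 2, finer clusters 0, classes by marker score 0 and leaving out *Sox17* or *Msx1* cells 4. A library could not be left out there for lack of residual degrees of freedom. Without the library block 1 of 6 calls was made between villus tip and bottom, 0 of 6 between cycling and *Lgr5*-high crypt, and 1 of 4 in ileal cells. DESeq2 called 3 in the crypt and 2 in ileal cells. Without 1 library these counts ran from 3 to 7, from 4 to 6 and from 2 to 4. By marker score, the crypt class can hold adenoma cells. Of the ratios to WT past 1.5-fold, 4 in the crypt became 8 with classes by marker score, and the 7 in the villus ran from 5 to 8. The 2 ratios of the adenoma ran from 2 to 3. These counts are of the 8 genes and stand here without the share of all genes called under each alternative. The cause of these shifts was not tested.

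The sign turned with total-UMI scaling in Paneth cells for *Epha2* (−2.01), *Efnb2* (−1.91) and *Efna1* (−1.82), where the median of all genes moved as well, and for *Efna1* in goblet (−0.41), *Efnb1* in enteroendocrine (0.0878), *Epha2* in tuft (0.0657) and *Ephb2* and *Efna1* in adenoma cells (0.0565 and 0.0592). With classes by marker score it turned for *Cd44* in enteroendocrine (−0.0273), tuft (−0.40) and adenoma cells (−0.0203), *Epha2* in goblet (−0.14), Paneth (−0.26) and tuft cells (0.0390), *Ephb3* and *Efnb1* in enteroendocrine cells (−0.22 and 0.16) and *Efna1* in the adenoma (0.0453). With *Sox17* or *Msx1* cells left out it turned for *Epha2* and *Efnb2* in Paneth (−0.21 and −0.13), *Ephb3*, *Epha2* and *Efnb1* in enteroendocrine (−0.0761, 0.0352 and 0.0142) and *Cd44* in ileal cells (−0.33). With no filter on low counts it turned for *Epha2* in Paneth (−0.0483) and *Ephb3* in enteroendocrine cells (−0.00916), with finer clusters for *Efnb1* in enteroendocrine cells (0.00150) and with the stricter mitochondrial limit for *Epha2* in tuft cells (0.0792). Without 1 library the range held both signs in goblet cells for *Efna1* (−0.25 to 0.27), in Paneth cells for *Ephb2* (−0.31 to 0.13), *Epha2* (−0.63 to 0.64) and *Efnb2* (−0.12 to 0.51), in enteroendocrine cells for *Ephb3* (−0.30 to 0.32), *Efnb1* (−0.20 to 0.0209) and *Efna1* (−0.0342 to 0.27), in tuft cells for *Epha2* (−0.62 to 0.22) and *Cd44* (−0.0352 to 0.26), at the villus tip for *Efnb1* (−0.17 to 0.00670) and in ileal cells for *Efna1* (−0.00338 to 0.25) and *Cd44* (−0.42 to 0.39). For *Ephb3* in *LApcL* over *LApc* adenoma cells it turned with TMM scaling (0.0618), classes by marker score (0.0714), without *Wfdc18*-high cells (0.0627) and without cells holding a cycling UMI (0.0164). *Efna1* in that ratio was −0.59 without *Wfdc18*-high cells and −1.57 without cycling UMIs. The share of WT crypt cells with an *Ephb2* UMI was 9.00% after and 30.1% before thinning. Of the other values for single genes, 921 kept their direction and side, 27 untested ratios turned sign within an interval that held 0, 117 moved, 6 of them with a turned sign, 66 lost and 32 gained a call. Between genotypes no paired analysis was possible because each has 1 library. The comparisons of cell classes were paired, with the library as a block. The depth limited *Ephb3* in tuft cells, where a library held as few as 1 UMI. It also limited *Epha2* in tuft and Paneth cells, where a library of each class held no more than 3 UMIs.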

Other observations

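The rest of the Eph and ephrin family differed among the secretory and tuft classes. *Epha4*, a receptor that binds ligands of both types, was higher in tuft than in crypt cells (log2 2.03, SE 0.21, edgeR adjusted p = 1.73e-05), at 19.0 CPM in WT, 24.6 in *LApc* and 40.3 in *LApcL*, and lower in goblet cells (log2 −2.22, SE 0.35, edgeR adjusted p = 0.000833). *Epha7* was higher in enteroendocrine than in crypt cells (log2 2.86, SE 0.52, edgeR adjusted p = 0.00235), on 14, 17 and 3 UMIs in WT, *LApc* and *LApcL*. The ligand gene *Efna4* was lower than in the crypt in goblet (log2 −2.43), enteroendocrine (−1.29) and tuft cells (−0.80), and *Efna3* in goblet (−3.75), tuft (−2.26), enteroendocrine (−1.32) and Paneth cells (−0.86). *Epha1*, higher in the villus than in the crypt, was higher again at the villus tip than at the bottom (log2 1.23, SE 0.12, edgeR adjusted p = 3.24e-05).

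Between the adenoma libraries, *Ephb6*, a receptor without kinase activity, stood at 6.12 CPM in *LApc* and 0.712 CPM in *LApcL* (log2 −3.10), and *Efna3* at 1.10 and 5.44 CPM (log2 2.30). Of the 7 family genes with at least 50 UMIs, 2 were past 1.5-fold upward and 2 downward in *LApcL*, as were 5.74% and 22.6% of all genes. *Msn*, which codes for the CD44 linker moesin, stood at 6.12 CPM in *LApc* and 0.758 CPM in *LApcL* adenoma cells (log2 −3.01), and immune marker genes summed to 59.5 and 1.78 CPM in the same cells.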
